A study of Mus musculus with 13 samples.

Results

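Egr1, Egr2, Egr3 and Egr4 encode the EGR family of zinc finger transcription factors, and Nab1 and Nab2 encode the corepressors that bind them. These 6 genes were taken from the 34013 of the count table. They were chosen by family membership after earlier results on the same libraries were known, and the family was selected on the low level of Egr3 in NTS-R against TS-R. The members' values in NTS-R against TS-R, and in the interaction that contains it, are therefore given as a description with no test. TS-R against WTS-R and NTS-R against NS-R each share a group with the selecting comparison, so their tests are not independent of the choice. The libraries are bulk mRNA sequencing of perivascular adipose tissue, the fat around blood vessels, from C57BL/6 mice that had received splenocytes, the cells of the spleen.

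The groups differ in the donor of the splenocytes. WTS-R (3 libraries) received them from wild-type mice, NS-R (3) from Nlrp3 knockout mice, TS-R (4) from mice with type 2 diabetes (T2DM) and NTS-R (3) from Nlrp3 knockout mice with T2DM. Nlrp3 encodes the sensor of an inflammasome. The submitters' stated aim was to profile immune cells in this fat and to see what the cells of diabetic donors do to it. A genotype label reads WT in WTS-R and TS-R and Nlrp3 KO in NS-R and NTS-R, and it does not say whether donor or recipient is meant. The labels do not state how diabetes was produced, the kind of knockout, the age, sex and time of collection, or whether each library is a separate animal, so p-values measure only the spread between these samples.

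EGR genes are immediate early genes: their mRNA appears within minutes of a stimulus, without new protein synthesis, when ERK kinases activate factors bound beside serum response factor at CArG boxes, or when CREB is activated at cyclic AMP response elements. The proteins bind GC-rich sites, and NAB1 and NAB2 join EGR1, EGR2 and EGR3 there and dampen transcription; Nab2 is itself a target of EGR proteins. EGR1 is known for responses of vessel wall and fat to injury and feeding, EGR2 for myelin formation in Schwann cells and for T cell tolerance, and EGR3 for T cell tolerance and the growth of sympathetic nerve fibres.

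Promoter sequence is shown because EGR genes are known to be induced through such elements. RefSeq windows (GRCm38.p6, from 250 bases before the start) were matched for 4 of the 6 members: Egr2 with 5 windows, and Egr4, Nab1 and Nab2 with 1 each. Egr1 and Egr3 were not matched. Of the Egr2 windows, 4 held a CArG box, which was found in 1.47% of all 32851 windows. The upstream 250 bases of an Egr2 start (chr10:67537619-67537868, plus strand) and of Egr4 (chr6:85513590-85513839, minus strand) follow, 5′ to 3′. Capitals mark the CArG box and the cyclic AMP response element core TGACG, which on the other strand reads as CGTCA and was found on either strand in 17.8% of windows. By gene, the core was in 28.5% of the genes with a window that were kept for testing. It was in 13 of 19 other immediate early genes described here.
Egr2: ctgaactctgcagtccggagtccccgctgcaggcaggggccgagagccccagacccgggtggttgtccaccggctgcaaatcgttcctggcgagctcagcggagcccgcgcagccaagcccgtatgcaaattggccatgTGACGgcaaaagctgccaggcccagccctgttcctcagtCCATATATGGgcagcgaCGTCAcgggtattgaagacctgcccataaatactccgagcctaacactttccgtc
Egr4: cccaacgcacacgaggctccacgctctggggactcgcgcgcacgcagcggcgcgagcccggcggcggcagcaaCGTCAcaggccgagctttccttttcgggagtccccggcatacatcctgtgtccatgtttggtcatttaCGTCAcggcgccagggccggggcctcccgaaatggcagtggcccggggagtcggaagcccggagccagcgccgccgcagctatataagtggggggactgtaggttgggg

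The CArG box of Egr2 begins 72 bases before that start and lies between the TGACG and CGTCA cores, which begin 111 and 55 bases before it. Egr4 held CGTCA at 177 and 109 bases and no CArG box in this window. The downstream box was shared by 3 overlapping windows. An Egr2 start upstream of these had another CArG box (chr10:67537484-67537513). Among the other immediate early genes described here, 19 had a window and 1 of these, Zfp36 (chr7:28379267-28379296, minus strand), held a CArG box. These matches describe letters and are not shown to be bound.
Egr2, upstream start: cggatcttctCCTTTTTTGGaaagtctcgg
Egr2, downstream start: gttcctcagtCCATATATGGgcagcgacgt
Zfp36: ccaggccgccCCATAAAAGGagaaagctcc

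Nab1 held the EGR binding motif GCGTGGGCG, or its complement, at 2 places (chr1:52500539-52500567 and chr1:52500571-52500599, minus strand). The motif was found in 0.536% of windows and, by gene, in 1.18% of the genes with a window that were kept for testing. The variant GCGGGGGCG was also in the Nab1 window, as in 2.57% of all windows and 5.37% of those genes. The Nab2 window (chr10:127666704-127666953, minus strand) held none of the motifs searched, which also included the full element TGACGTCA (1.55% of windows). Only the letters searched are meant: an element elsewhere or with other letters would not be found. In the stretches below capitals mark the EGR motif.
Nab1, upstream site: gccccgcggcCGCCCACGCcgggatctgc
Nab1, downstream site: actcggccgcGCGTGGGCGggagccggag

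Libraries held 14216706 to 37011122 counts. Levels are given as CPM, each count scaled to its library's total, and a count of 0 allows up to 3 counts, 0.0811 to 0.211 CPM by library (counting error only). Markers of fat were present: Ucp1, the heat-producing protein of brown fat, was at 366 to 3921 CPM, and summed adipocyte markers were at 4762 to 18368 CPM. Tissue content was uneven. The summed airway list reached 12333 CPM in NS-R, carried by replicates 1 and 2 (the airway gene Bpifa1 at 3241 and 5853 CPM, the club cell gene Scgb1a1 at 2324 and 4629 CPM), and was at most 5.17 CPM in WTS-R, TS-R and NTS-R, where Sftpa1 (WTS-R, TS-R), Scgb3a2 (WTS-R, NTS-R) and Sftpc (NTS-R) were at 0 in every library. The summed T cell list was 29.6 to 1000 CPM in TS-R and at most 31.7 CPM elsewhere. Skeletal muscle markers summed to 14452 CPM in TS-R replicate 1 and to 13.4 to 2228 CPM in the other libraries. NS-R replicate 3 and TS-R replicate 3 expressed Xist (459 and 805 CPM), the other 11 at most 0.352 CPM. Mitochondrial genes took 6.11% of counts in TS-R replicate 1 and up to 36.7% in NS-R replicate 3. Nlrp3 ranged over 0.226 to 0.693 CPM in WTS-R, 0.456 to 1.36 in NS-R, 0.537 to 3.55 in TS-R and 0.352 to 1.22 in NTS-R. Its reads cannot be assigned to donor or recipient cells, and the kind of knockout is not stated. These levels therefore do not check the genotype labels. In bulk tissue, fewer cells of a type and less RNA per cell cannot be told apart.

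Egr1, Egr2 and Egr3 showed a common order of groups. Each was high in NS-R and TS-R, lower in WTS-R and lowest, by its mean, in NTS-R. By mean CPM, Egr3 was 26.8 ± 8.48 (SD, n = 3) in NS-R, 24.0 ± 12.8 (n = 4) in TS-R, 6.36 ± 3.61 (n = 3) in WTS-R and 1.62 ± 0.707 (n = 3) in NTS-R. Nab1 and Nab2 did not follow this order, and Egr4 was at or under the 3-count floor in every library. None of the 5 tested members passed edgeR's test at an adjusted p under 0.05 in any comparison, nor did any other gene.

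**Figure D1:**
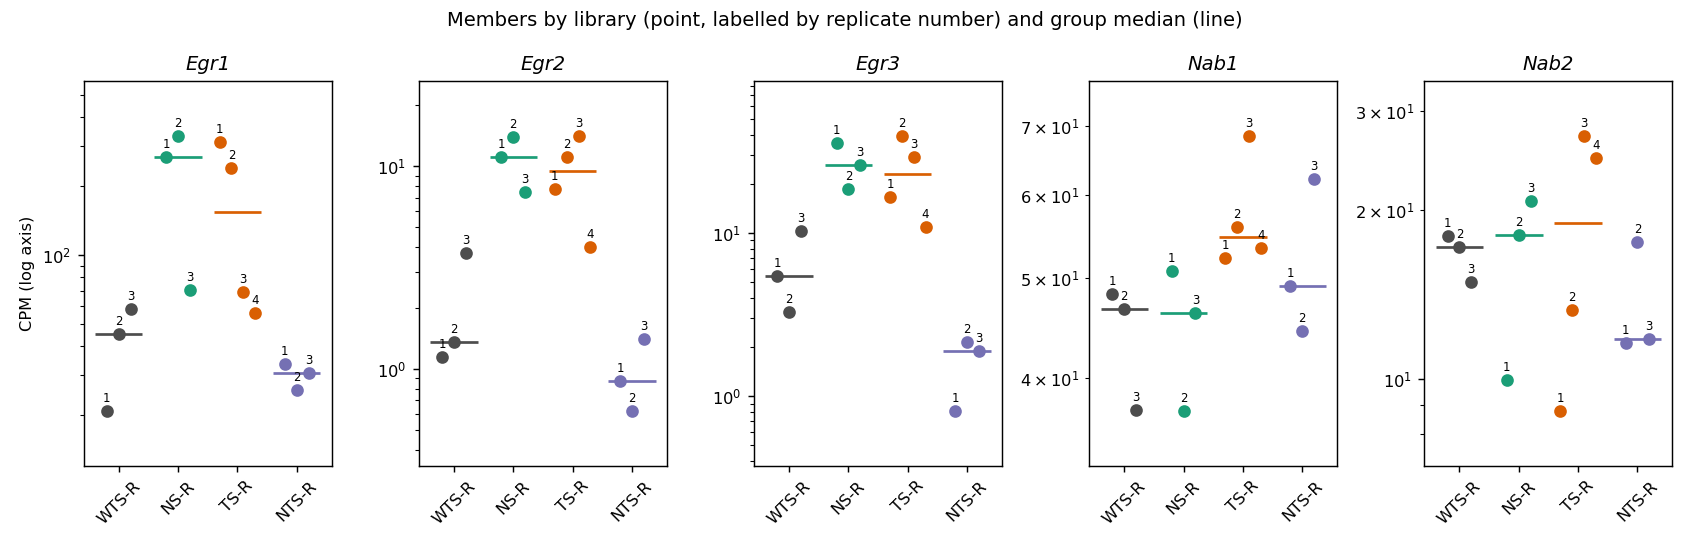
CPM of Egr1, Egr2, Egr3, Nab1 and Nab2 in each library (points, with the replicate number) on log axes whose ranges differ between panels; lines are group medians. Egr3 lay at 0.812 to 2.14 CPM in the 3 NTS-R libraries and at 3.28 CPM or more in the other 10.

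Egr3 (GRCm38 chr14:70077203-70082614, plus strand, in GENCODE M21) was at 5.47, 3.28 and 10.3 CPM in WTS-R replicates 1 to 3 and at 35.5, 18.6 and 26.2 CPM in NS-R. In TS-R replicates 1 to 4 it was at 16.6, 39.4, 29.3 and 10.9 CPM. In NTS-R it was at 0.812, 2.14 and 1.90 CPM, which are 14, 31 and 27 counts. All NTS-R libraries lay below all 10 others, a pattern found in 138 of 17270 tested genes (0.799%). The family was selected on the low Egr3 level in NTS-R against TS-R, so this share does not measure how unusual Egr3 is. The neighbours NS-R and TS-R overlapped; TS-R replicate 4 exceeded WTS-R replicate 3 by little in CPM, and on the TMM-scaled level the order of those libraries was turned (10.4 and 10.5). EGR3 is the family member known for sympathetic target innervation and for restraint of T cell activation.

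Egr2 (chr10:67535475-67542188, plus strand) encodes the factor also called KROX20. WTS-R replicates held 1.14, 1.36 and 3.72 CPM, and NS-R 11.2, 13.9 and 7.50 CPM. TS-R replicates 1 to 4 held 7.75, 11.2, 14.1 and 3.98 CPM. NTS-R held 0.870, 0.621 and 1.41 CPM, from 15, 9 and 20 counts. NTS-R overlapped WTS-R, whose lowest library was below the highest of NTS-R. NS-R and TS-R overlapped each other and neither overlapped NTS-R. TS-R lay above WTS-R by little in CPM (3.98 against 3.72), and these libraries overlapped on the TMM-scaled level (3.78 against 3.79).

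Egr1 (chr18:34859823-34864984, plus strand) is the most studied member, induced by growth factors, shear stress and injury. WTS-R replicates held 20.9, 45.2 and 57.9 CPM, and NTS-R 33.5, 25.7 and 30.5 CPM. NS-R held 267, 331 and 70.4 CPM. TS-R replicates 1 to 4 held 313, 241, 69.3 and 55.8 CPM. High Egr1 was thus a feature of 4 libraries, NS-R replicates 1 and 2 and TS-R replicates 1 and 2, while the other libraries of these groups lay at 55.8 to 70.4 CPM. TS-R overlapped WTS-R, and WTS-R overlapped NTS-R, on both scales.

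Egr4 (chr6:85511121-85513589, minus strand) encodes a member found mostly in neurons. It had 0 to 2 counts in every library, at most 0.120 CPM. It was removed by the filter on low counts, no fold is given, and a difference between groups was not detectable at this depth.

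The group means of the corepressors differed less, in proportion, than those of Egr1, Egr2 and Egr3. Nab1 (chr1:52457294-52500679, minus strand) stood in WTS-R at 48.2, 46.6 and 37.3 CPM, and in NS-R at 50.7, 37.2 and 46.2 CPM. TS-R held 52.2, 55.9, 68.4 and 53.4 CPM, and NTS-R 49.1, 44.4 and 62.3 CPM. All TS-R libraries exceeded all WTS-R libraries in CPM, but on the TMM-scaled level they overlapped.

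Nab2 (chr10:127660918-127668568, minus strand) stood in WTS-R at 18.0, 17.2 and 14.9 CPM, and in NS-R at 9.97, 18.1 and 20.8 CPM. TS-R held 8.79, 13.3, 27.1 and 24.7 CPM, and NTS-R 11.6, 17.5 and 11.8 CPM. All groups overlapped. Exons of Nab2 share 40 bases with Stat6, 151 with Nemp1 and 1050 with Gm16229, all on the opposite strand in GENCODE M21. The strand setting of the counting is not given in the sources used here, so reads of these genes cannot be told apart there and the Nab2 level is uncertain. Exons of the other members overlapped no other gene.

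Levels of different genes were compared per kilobase of exon in GENCODE M21, which may not be the submitters' annotation. Per kilobase Egr1 was the most abundant EGR gene, with a mean of 49.7 ± 30.3 CPM per kb (SD, n = 3) in NS-R and 6.67 ± 0.882 (n = 3) in NTS-R. Egr3 stood at 6.08 ± 1.92 and 0.367 ± 0.161 CPM per kb in the same groups, and Egr2 at 3.19 ± 0.946 and 0.284 ± 0.118. Nab1 was at 10.9 ± 1.68 CPM per kb in NS-R and 12.7 ± 2.26 in NTS-R. In NS-R every library held more Egr1 than Nab1 per kb (15.7 to 73.9 against 9.08 to 12.4), and in NTS-R every library held less (5.72 to 7.47 against 10.8 to 15.2). In WTS-R and TS-R the ranges of these genes overlapped.

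TS-R against WTS-R asks what splenocytes of diabetic donors do when donor Nlrp3 is intact. Egr1, Egr2 and Egr3 were higher by log2 fold changes of 1.75 (SE 0.63), 1.88 (SE 0.49) and 1.65 (SE 0.50), which are 3.37-, 3.69- and 3.15-fold. Nab1 (0.10, SE 0.19) and Nab2 (-0.13, SE 0.39) lay near 0. With edgeR's quasi-likelihood test and Benjamini-Hochberg adjustment over 17270 genes the adjusted p was 0.130, 0.0666 and 0.0846 for the EGR genes, 0.804 for Nab1 and 0.883 for Nab2. No member was called. The TS-R libraries also entered the comparison on which the family was selected. The high levels here, and any calls of the EGR genes, are therefore not independent of the choice.

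The background of that comparison was broad. edgeR called 0 of 17270 genes (0% higher, 0% lower), and an unadjusted p under 0.05 was reached by 15.2% upward and 7.07% downward. DESeq2 called 9.08% of 17241 genes higher and 1.97% lower, limma with voomWithQualityWeights 13.5% higher and 8.59% lower; each called all of Egr1, Egr2 and Egr3. The groups did not overlap in CPM, TS-R higher, for Egr2, Egr3 and Nab1, as for 19.2% of all genes, and with TS-R lower for no member and 2.39% of genes. Leaving out TS-R replicate 1 or replicate 4 brought edgeR's calls to 2 members and 1906 or 1238 genes. T cell markers moved with this comparison (12 of 12 higher, median log2 fold change 4.98), as did B cell (10 of 10, 6.01) and neutrophil markers (8 of 8, 4.51). Without TS-R replicate 3 these medians were 3.95, 4.22 and 3.97. Clock genes differed as well: 9 of 9 listed with Dbp were higher (median 1.27), and 4 of 5 listed with Arntl were lower (median -1.47). The labels give no time of collection. In TS-R replicate 1 alone, with the T cell list at 29.6 CPM but with the most skeletal muscle (14452 CPM) and sympathetic neuron transcripts (297 CPM) of all libraries, the fitted differences were 2.59 (SE 0.60) for Egr1, 1.60 (SE 0.56) for Egr2 and 1.08 (SE 0.55) for Egr3, with TS-R assumed to vary like the other groups.

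**Figure D2:**
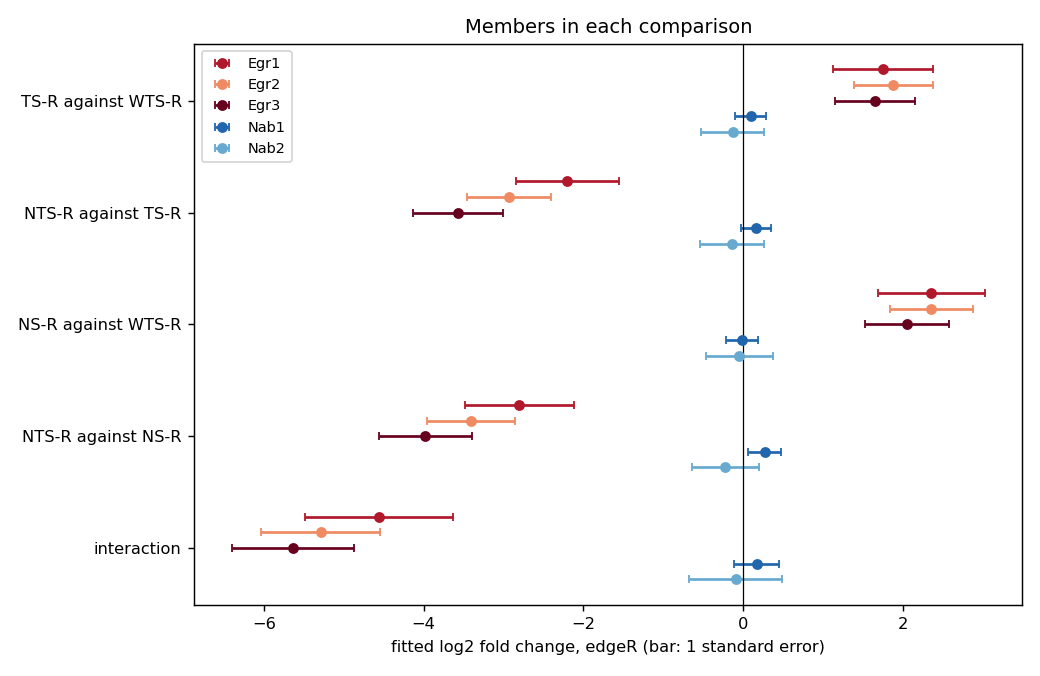
Fitted log2 fold change of 5 members in the 4 comparisons and the interaction (points; bars are 1 standard error). Egr1, Egr2 and Egr3 lie between 1.65 and 2.36 in the comparisons with WTS-R and between -3.98 and -2.20 in those of NTS-R with TS-R and NS-R, while Nab1 and Nab2 lie between -0.22 and 0.27 throughout.

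NS-R against WTS-R sets Nlrp3 knockout donors without diabetes against wild-type donors. Egr1, Egr2 and Egr3 were higher by log2 fold changes of 2.36 (SE 0.67), 2.36 (SE 0.52) and 2.06 (SE 0.53), or 5.13-, 5.14- and 4.17-fold. The differences of Nab1 and Nab2 were -0.01 (SE 0.21) and -0.05 (SE 0.42). The edgeR adjusted p was 0.363, 0.204 and 0.283 for the EGR genes and 0.9997 for both corepressors, so no member was called. For Egr1, Egr2 and Egr3 the groups did not overlap on either scale; 7.78% of genes did so with NS-R higher and 4.02% with NS-R lower.

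edgeR called 0% of genes higher and 0% lower here, with 4.92% and 0.388% at an unadjusted p under 0.05. DESeq2 called 1.1% higher and 0% lower, including Egr1, Egr2 and Egr3. limma with voomWithQualityWeights called 0.0811% higher and 0% lower, including 1 member. The airway list moved with NS-R, and its most abundant genes Bpifa1 and Scgb1a1 were at 0 CPM in NS-R replicate 3. Against that replicate alone the log2 difference from WTS-R was 0.92 (SE 0.81) for Egr1, 2.03 (SE 0.68) for Egr2 and 2.21 (SE 0.69) for Egr3, with NS-R assumed to vary like the other groups. These values rest on 1 library, which differed from NS-R replicates 1 and 2 in more than airway transcripts. It expressed Xist (459 CPM) and had the highest mitochondrial share of all libraries (36.7%). The part of the airway transcripts was not tested. Without NS-R replicate 3, 2 members and 503 genes were called. Smooth muscle markers were also higher in NS-R (7 of 7, median 1.17), and their part was not tested. The clock genes listed with Dbp were higher as well (9 of 9, median 0.91).

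NTS-R against NS-R sets diabetic against non-diabetic donors where both lacked Nlrp3. Egr1, Egr2 and Egr3 were lower by log2 values of -2.80 (SE 0.68), -3.41 (SE 0.55) and -3.98 (SE 0.58), which are 6.98-, 10.6- and 15.8-fold. Nab1 (0.27, SE 0.21) and Nab2 (-0.22, SE 0.42) differed little. The edgeR adjusted p was 0.211 for Egr1, 0.150 for Egr2 and Egr3, 0.978 for Nab1 and 0.999 for Nab2. Egr3 had the smallest unadjusted p of all 17270 genes (1.52e-05). The NTS-R libraries also entered the comparison on which the family was selected, so this low level is not independent of the choice.

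In this comparison edgeR called 0% of genes each way; an unadjusted p under 0.05 was reached by 1.25% with higher and 5.11% with lower levels. DESeq2 called 0.0232% higher and 1.18% lower, including Egr1, Egr2 and Egr3, and limma with voomWithQualityWeights 0% and 0.0695%, including 2 members. The groups of all 3 EGR genes did not overlap, as for 7.76% of genes with NTS-R lower (5.29% with NTS-R higher). With NS-R replicate 3 alone the values were -1.36 (SE 0.80) for Egr1, -3.06 (SE 0.69) for Egr2 and -4.12 (SE 0.70) for Egr3. Without NS-R replicate 3, 3 members and 563 genes were called. Heat shock genes were higher in NTS-R in 7 of 7 cases (median 0.84) and smooth muscle markers lower in 6 of 7 (median -1.17), and their part was not tested.

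NTS-R against TS-R asks what donor Nlrp3 adds among diabetic donors, and is the comparison that chose the family. The log2 differences were -2.20 (SE 0.64) for Egr1, -2.93 (SE 0.53) for Egr2 and -3.57 (SE 0.56) for Egr3, or 4.59-, 7.62- and 11.9-fold lower in NTS-R. Nab1 differed by 0.16 (SE 0.19) and Nab2 by -0.14 (SE 0.40). The groups of Egr1, Egr2 and Egr3 did not overlap, as for 16.9% of genes with NTS-R lower and 1.07% with NTS-R higher. edgeR called 0% of genes each way (unadjusted p under 0.05: 5.59% up, 14.1% down), DESeq2 1.14% higher and 7.15% lower, and limma 2.2% and 7.28%; nothing is read from the members' calls here. T cell markers moved with this comparison too (12 of 12 lower in NTS-R, median -4.03, and -3.01 without TS-R replicate 3). In TS-R replicate 1 alone, with few T cell transcripts but the most skeletal muscle transcripts, the NTS-R differences were -3.02 for Egr1, -2.63 for Egr2 and -2.99 for Egr3.

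The interaction is the diabetes difference with knockout donors less that with wild-type donors. It was -4.56 (SE 0.93) for Egr1, -5.29 (SE 0.74) for Egr2 and -5.63 (SE 0.77) for Egr3 on the log2 scale, and 0.17 (SE 0.28) and -0.09 (SE 0.58) for Nab1 and Nab2. The fitted values of the EGR genes were thus above 0 with diabetic donors that had Nlrp3 and below 0 with those that did not. edgeR called 0% of genes (unadjusted p under 0.05: 4.7% up, 13.6% down), DESeq2 0.551% and 5.75%, and limma 3.6% and 7.24%. The 4 comparisons share libraries in pairs and are not independent. Both TS-R and NS-R lay wholly above both WTS-R and NTS-R in CPM for 203 genes (1.18%), among them Egr2 and Egr3 but not Egr1; for Egr2 and Egr3 the step from WTS-R to TS-R was lost on the TMM scale.

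**Figure D3:**
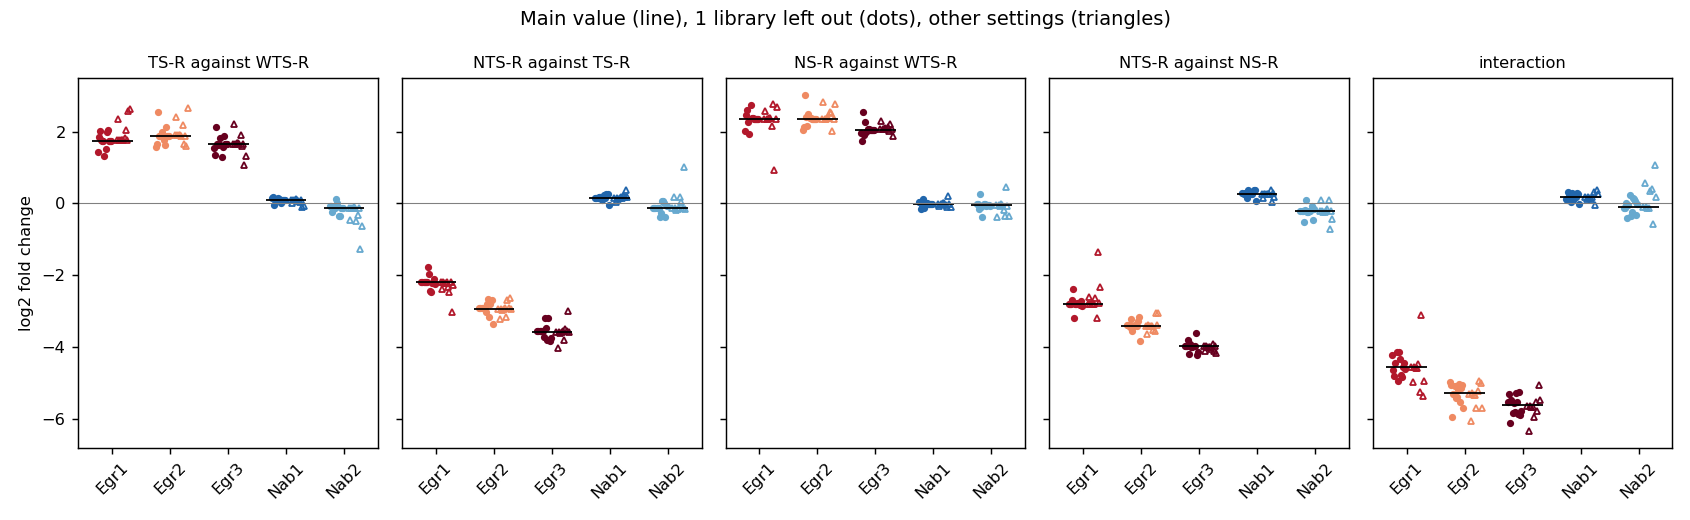
Fitted log2 fold change of each member in the comparisons and the interaction: line, the value reported; dots, each of 13 fits with 1 library left out; triangles, the other settings. All values of Egr1, Egr2 and Egr3 keep their sign, which the choice of members fixes in part, and those of Nab1 and Nab2 fall on both sides of 0 in several comparisons.

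How the members varied together was examined over the 13 libraries on log2(CPM + 0.5), with 15 pairs and permutation tests of 100000 resamples adjusted over the pairs. Egr2 and Egr3 gave r = 0.936 and rho = 0.879 (adjusted permutation p 0.0003 and 0.0027). Egr1 and Egr2 gave r = 0.848 and rho = 0.852 (adjusted permutation p 0.0039 and 0.00368), and Egr1 and Egr3 0.753 and 0.775 (0.0217 and 0.0137). Without the 2 libraries farthest from the median, r was 0.922, 0.845 and 0.812. These values hold the group differences on which the genes were chosen. On deviations from group means r was 0.646, 0.494 and 0.175, with adjusted permutation p of 0.138, 0.431 and 0.796: the relation between these genes within groups did not pass.

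Of the other 12 pairs none passed over all libraries. Within groups Egr1 and Nab2 gave r = -0.789 (adjusted permutation p 0.0225), while over all libraries r was -0.346 (adjusted permutation p 0.606). The within-group permutation shuffled the deviations of all libraries freely across groups. It took no account of the group means removed or of unequal spreads between groups. Its p can therefore be too small, and this pair is given as a description. In TS-R, Nab2 was lowest in replicates 1 and 2 (8.79 and 13.3 CPM), where Egr1 was highest (313 and 241 CPM). In NS-R the order was not strict: the lowest Nab2 (9.97 CPM, replicate 1) went with 267 CPM of Egr1, and 18.1 CPM with the highest Egr1 (331 CPM). TS-R replicates 3 and 4 held 27.1 and 24.7 CPM of Nab2, with Egr1 at 69.3 and 55.8 CPM. The uncertainty from overlapping genes applies to Nab2 here as well.

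**Figure D4:**
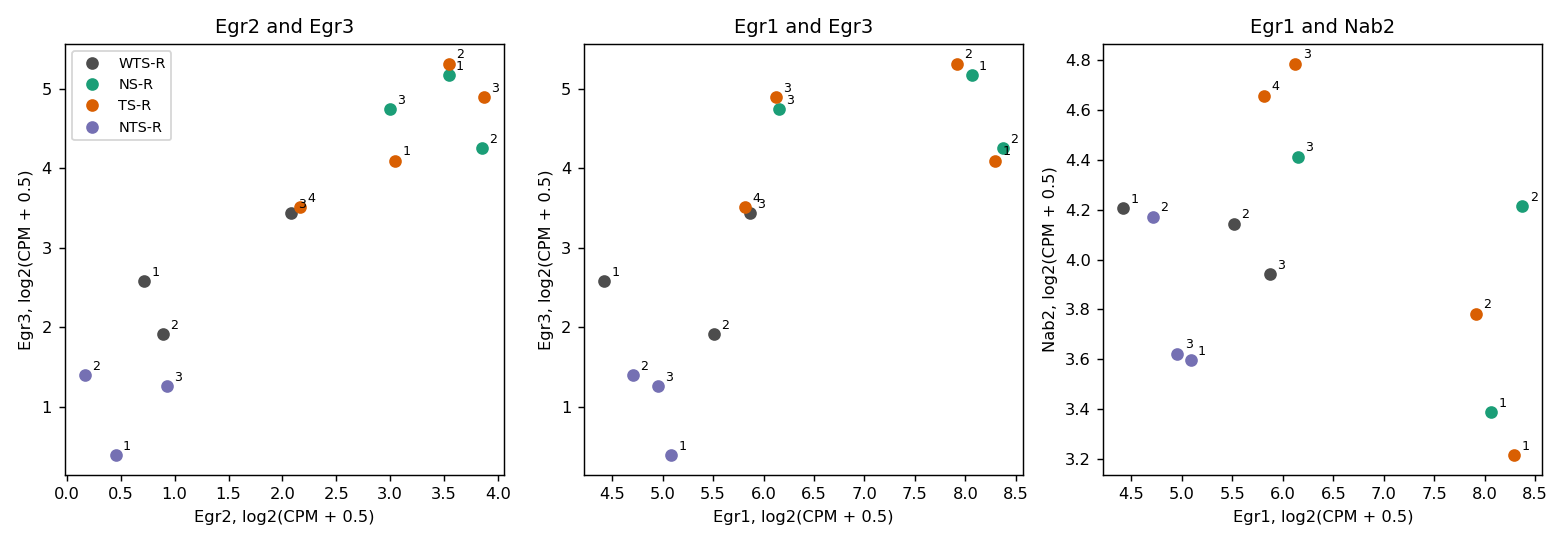
Levels of 3 pairs of members, log2(CPM + 0.5) on both axes, per library (points, colour by group, with the replicate number). Egr2 and Egr3 lie along a line over all groups (r = 0.936), Egr1 and Egr3 less so (r = 0.753), and in TS-R the libraries with the most Egr1 (313 and 241 CPM) hold the least Nab2 (8.79 and 13.3 CPM).

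The genes most like each member were taken as the 3 with the highest r among 15220 genes with a mean of 1 CPM or more, as a description. For Egr1 they were Syt5 (a synaptotagmin, 0.94), Zfp36 (a factor of mRNA decay, 0.94) and Ier2 (an immediate early gene, 0.94). For Egr2 they were Nfkbiz (an inducible regulator of NF-kappa B targets, 0.95), Egr3 (0.94) and Btg2 (an antiproliferative immediate early gene, 0.93). For Egr3 they were Zc3h6 (0.95), Egr2 (0.94) and Ptger4 (a prostaglandin E receptor, 0.92). Nab1 was most like Phf20l1, Foxn2 and Wdr37 (0.96, 0.95 and 0.95) and Nab2 most like Tnfrsf23, Med26 and Siah2 (0.89, 0.89 and 0.88). By this signed r, no EGR gene was among the 3 nearest to either corepressor. For Nab2, Egr3 ranked 5521, Egr2 ranked 6318 and Egr1, whose r was negative (-0.346), ranked 11338.

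Other immediate early genes were mostly higher in NS-R than in WTS-R and lower in NTS-R than in NS-R, and near WTS-R in TS-R. In NTS-R against NS-R, 22 of 23 were lower (median log2 fold change -1.53, against -0.01 over all genes), 15 at an unadjusted p under 0.05. Fosb and Nr4a1, a subunit of AP-1 and an orphan nuclear receptor, were at -4.32 (SE 0.83) and -3.15 (SE 0.51), and Btg2 and Ier2 at -2.20 (SE 0.48) and -2.17 (SE 0.52). None passed the adjusted test. In NS-R against WTS-R, 22 of 23 were higher (median 1.05, against 0.01 over all genes), 11 at an unadjusted p under 0.05, with Fosb at 2.58, Ccn1 at 1.89, Jun at 1.35 and Ier3 at 1.24. The Fosb values rest largely on NS-R replicate 2: NS-R held 17.5, 139 and 15.2 CPM and WTS-R 7.09, 10.3 and 10.1 CPM. Of the 23 genes, 6 lay higher in NS-R than in WTS-R without overlap (7.78% of all genes) and 1 lower (4.02%). In NS-R replicate 3, which lacked airway transcripts, Fos (24.0 CPM), Junb (31.6), Btg2 (62.9) and Ier2 (42.6) lay within the WTS-R ranges. In the same replicate Fosb (15.2 CPM), Ccn1 (123), Jun (179) and Ier3 (12.2) lay above every WTS-R library. The part of the airway transcripts in these levels was not tested. TS-R against WTS-R gave a median of 0.07 (12 of 23 higher), and NTS-R against TS-R gave -0.49 (17 of 23 lower).

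Single genes show the levels behind these medians. For Nr4a1 WTS-R held 252, 152 and 365 CPM, TS-R 182, 442, 113 and 277 CPM, and NS-R 545, 700 and 284 CPM, so that TS-R spanned the WTS-R range. In NTS-R it was at 54.4, 44.9 and 63.2 CPM, below every other library. Fosb was likewise at 2.20, 3.59 and 2.25 CPM in NTS-R and at 3.65 to 13.7 CPM in TS-R. Fos, the best known gene of the class, was at 30.6, 19.0 and 35.1 CPM in NTS-R, within the 14.5 to 57.2 CPM of WTS-R. The highest Fos and Fosb levels (478 and 139 CPM) were in NS-R replicate 2.

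**Figure D5:**
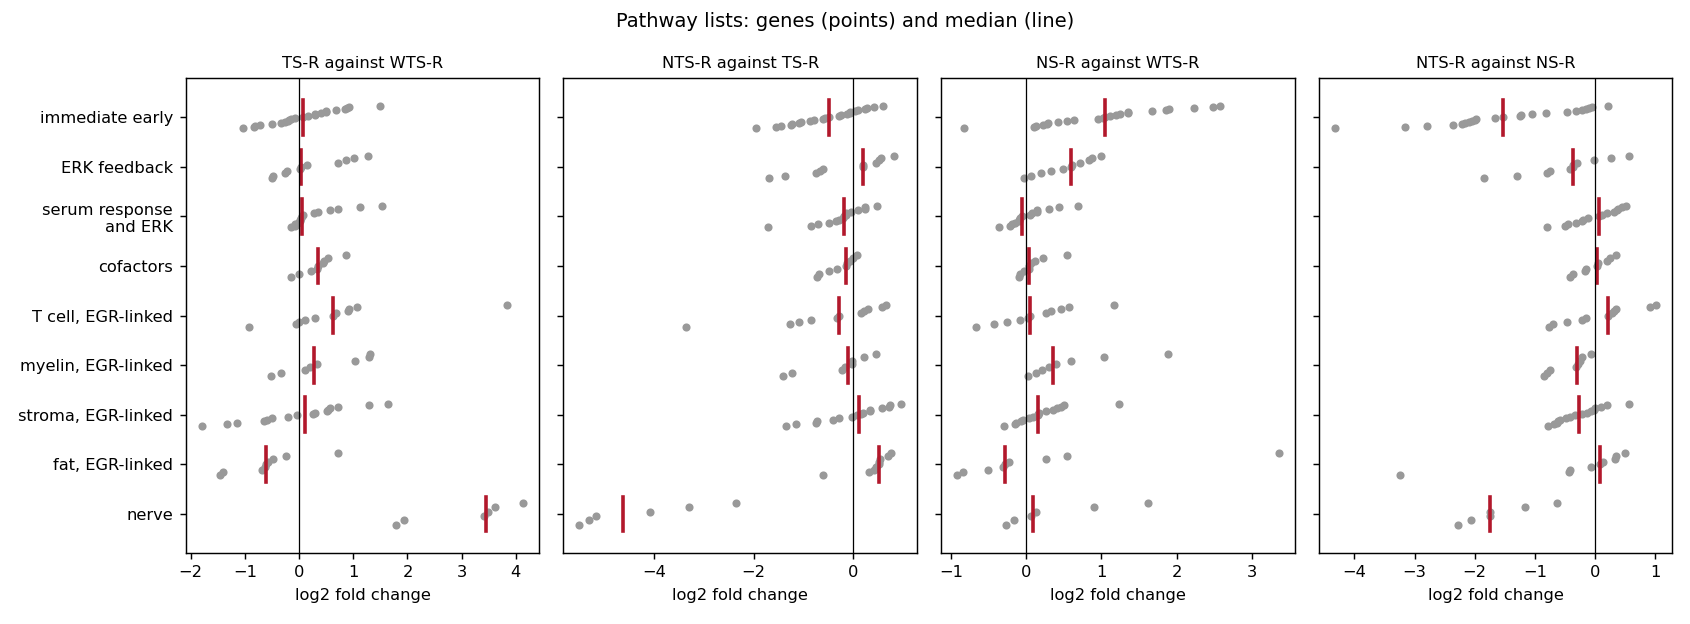
Fitted log2 fold changes of single genes (points) and list medians (red lines) for 9 gene lists in the 4 comparisons; horizontal ranges differ between panels. NS-R against WTS-R has an immediate early median of 1.05, NTS-R against NS-R one of -1.53, and the nerve list has medians of 3.45 and -4.63 in the comparisons with TS-R.

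By mRNA, the serum response and ERK genes, known inputs to the family, had medians near 0. The activity of these kinases and factors was not measured. Of 15 serum response and ERK pathway genes, including Srf, the median lay between -0.19 and 0.07 in the 4 comparisons, and 0 passed the adjusted test. Mrtfa and Mrtfb, coactivators of serum response factor, were at 1.13 (SE 0.36) and 0.72 (SE 0.20) in TS-R against WTS-R. Mrtfb was also the furthest of those without overlap at 0.68 (SE 0.21) for NS-R against WTS-R, and at -0.49 (SE 0.20) for NTS-R against TS-R. Of 11 ERK feedback genes, 10 were higher for NS-R against WTS-R (median 0.60), and for NTS-R against NS-R 9 were lower (median -0.37). TS-R against WTS-R gave a median of 0.03 (7 of 11 higher), and NTS-R against TS-R gave 0.20 (6 of 11 higher). Dusp5, a nuclear ERK phosphatase, was at 2.38, 2.55 and 3.66 CPM in NTS-R and at 3.78 CPM or more in the others, with -1.85 (SE 0.36) against NS-R and -1.70 (SE 0.35) against TS-R. Of 9 other EGR cofactors the medians lay between -0.14 and 0.35.

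Genes linked to EGR proteins in T cells, myelin and stroma had small list medians. The T cell list (11 of 13 tested) had medians of 0.63 (TS-R against WTS-R) and -0.28 (NTS-R against TS-R); the latter was 0.03 without TS-R replicate 3. Dgkz, a diacylglycerol kinase of T cell tolerance, was at 1.07 (SE 0.28) and -1.08 (SE 0.28), and Lag3, a checkpoint receptor, at -1.27 (SE 0.33) in the latter. The myelin list (8 of 10 tested) had medians between -0.30 and 0.35. Schwann cell markers had medians of 0.24 in TS-R and 0.35 in NS-R, each set against WTS-R. The stroma list (16 genes) lay between -0.28 and 0.16, with Col1a1, a collagen chain, at -1.80 (SE 0.47) in TS-R against WTS-R.

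For the fat list (9 genes) TS-R against WTS-R gave a median of -0.61, and NTS-R against TS-R gave 0.53; without TS-R replicate 3 these were -0.31 and 0.28. Ucp1 and Cebpb, an adipogenic factor downstream of EGR2, were at -1.46 (SE 0.46) and -1.40 (SE 0.41) in the former. Pnpla2, the lipase that EGR1 is known to repress, was at 1963 to 3251 CPM in TS-R replicates 1, 2 and 4 and at 549 CPM in replicate 3. Klf5 was at 8.02 and 10.9 CPM in the airway-rich NS-R libraries and at 0.71 CPM in NS-R replicate 3. Of the brown adipocyte markers 9 of 9 were lower in TS-R set against WTS-R (median -0.94, and -0.56 without TS-R replicate 3), and their part was not tested. No gene of these lists passed the adjusted test.

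The nerve list, 6 genes of sympathetic nerve, was high in 3 of the 4 TS-R libraries. Its summed level was 93.2 to 246 CPM in TS-R replicates 1 to 3 and 8.48 CPM in replicate 4, within the 6.07 to 31.8 CPM of WTS-R. TS-R against WTS-R gave a median of 3.45, and NTS-R against TS-R gave -4.63, with all 6 genes in the same direction. For Ngfr, a neurotrophin receptor, TS-R replicates 1 to 4 held 25.0, 16.3, 13.5 and 1.93 CPM and NTS-R 1.33, 1.24 and 0.84 CPM. WTS-R held 2.34, 2.54 and 4.16 CPM and NS-R 7.32, 3.76 and 6.02 CPM. TS-R replicate 4 lay below these 6 libraries in Ngfr, and it had the lowest Egr2 and Egr3 of its group. In NS-R, whose Egr3 range overlapped that of TS-R, the list median against WTS-R was 0.09. The sympathetic neuron markers summed to 8.74 to 297 CPM (TS-R) and 8.64 to 12.7 CPM (NTS-R); their part in the EGR levels was not tested.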

How the data were processed

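Bulk mRNA was measured in 13 libraries of perivascular adipose tissue. The deposited table holds raw counts per gene (34013 genes), made by the authors with HISAT2 and featureCounts, per the submitters' processing notes; no source used here gives their versions, the build, the annotation or the strand setting. Paired-end libraries came from TRIzol-extracted RNA checked for quality, per the labels' protocols. Gene identifiers were matched to symbols for 33302 genes. No libraries of a group agreed within sampling noise (lowest chi-square per degree of freedom 32.4).

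Groups follow the sample titles. All 13 libraries entered a quasi-likelihood fit in edgeR 4.0.16 (R 4.3.3) with TMM scaling and filterByExpr, which left 17270 genes; calls used a Benjamini-Hochberg adjusted p under 0.05. SE is the log2 fold change over the root of F. The common biological coefficient of variation was 0.389 with 3.50 prior degrees of freedom. CPM use the total count. DESeq2 1.42.0 and limma 3.58.1 with voomWithQualityWeights were among 24 alternatives (size factors, filters, a replicate block, a clock gene covariate, libraries left out); leaving out the libraries rich in airway or in T cell transcripts was chosen after seeing the data. Correlations used scipy 1.17.1.

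Members, lists and tests were chosen with earlier results of these data known. Named genes are the 6 members; of each pathway list, up to 4 per comparison with the largest difference among genes of 1 CPM or more whose groups do not overlap; and the 3 genes most like each member. Fos, Pnpla2, Scgb1a1, Bpifa1, Nlrp3 and Xist were named after their values were seen. Motifs were searched on both strands of the 250 bases before each RefSeq start; CArG is CC, 6 of A or T, GG. List levels are summed CPM. Some genes that this rule names are not reported here.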

Additional observations from a re-analysis of the deposited data

Results flagged for a closer look

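For Egr1, Egr2 and Egr3 the fitted difference between Nlrp3 knockout and other donors was above 0 without diabetes and below 0 with it. On the log2 scale the interaction was -4.556 for Egr1, -5.29 for Egr2 and -5.632 for Egr3. NS-R lay above WTS-R while NTS-R lay below TS-R with no overlap for all 3 genes, in CPM and on the TMM-scaled level. Taken as the difference with diabetes, TS-R overlapped WTS-R for Egr1 on both scales and for Egr2 and Egr3 on the TMM-scaled level. Since the genes were chosen with the low level of Egr3 in NTS-R against TS-R in view, no test of the difference is given.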

How the results depend on the processing

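Egr1, Egr2 and Egr3 had the same sign in 357 of 357 alternative values, which include the comparisons on which the family was chosen, so that the choice fixes this in part. Nab1 and Nab2 changed sign in 38 of 238 and passed in 0. Here and in the paragraphs below, counts of members called in NTS-R against TS-R and in the interaction test nothing. They are printed for completeness only, since the members were chosen on those values. What changed most was the number of genes called, which was 0 in each comparison as reported; the cause was not tested. In the order in which the fold change plot shows the comparisons (TS-R to WTS-R; NTS-R to TS-R; NS-R to WTS-R; NTS-R to NS-R; interaction), DESeq2 called 1906, 1429, 190, 208 and 1086 genes with 3 members in each. limma with voomWithQualityWeights called 3816, 1638, 14, 12 and 1872 genes with 3, 3, 1, 2 and 3 members. Without the filter on low counts edgeR called 889, 404, 138, 126 and 92 genes with 1, 2, 1, 3 and 3 members. Without the 2 libraries that express Xist it called 50 genes in TS-R against WTS-R, 674 with 2 members in NS-R against WTS-R, 758 with 3 in NTS-R against NS-R and 401 with 3 in the interaction. The clock gene covariate gave 12 genes in NS-R against WTS-R and 105 with 2 members in the interaction, and the fit of only the groups compared 5 genes with 2 members in NTS-R against NS-R. Without the libraries rich in T cell transcripts, a setting chosen after seeing the data, 191 genes, 284 with 2 members and 81 with 3 members were called in the first, the second and the last comparison of that order.

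Replicate numbers did not pair the samples: deviations of 18 same-numbered pairs correlated at -0.321 to 0.328, 6 of them over 0.1, and 4 libraries matched their own number best. The replicate block gave 784 genes with 1 member in TS-R against WTS-R, 76 with 2 in NTS-R against TS-R and 19 with 2 in the interaction, and it turned Nab2 to 0.17 in NTS-R against TS-R and 0.35 in the interaction.

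Leaving out 1 library at a time, genes called ranged from 0 to 1906, 0 to 1018, 0 to 503, 0 to 563 and 0 to 517 in the same order, and members called from 0 to 2, 0 to 3, 0 to 2, 0 to 3 and 0 to 3. Members were called in NTS-R against TS-R without TS-R replicate 1 (2) or 4 (3). In the interaction they were called without NS-R replicate 3, TS-R replicate 1 or TS-R replicate 4 (3 each) or TS-R replicate 3 (2). The members were chosen on the values of these 2 comparisons, so these calls test nothing. Nab1 ranged from -0.0394 to 0.17, -0.0394 to 0.26 and -0.15 to 0.12 in the first, the second and the third comparison and from -0.0164 to 0.32 in the interaction. Nab2 ranged from -0.35 to 0.12, -0.38 to 0.0835 and -0.37 to 0.27 in these comparisons, from -0.52 to 0.10 in NTS-R against NS-R and from -0.39 to 0.23 in the interaction.

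Other changes of sign were small values of the corepressors. Nab1 was at -0.0801 with the clock covariate and -0.10 without the T cell-rich libraries in TS-R against WTS-R, at 0.0210 with a mean CPM of at least 1, 0.00707 with only the groups compared and 0.21 without the airway-rich libraries in NS-R against WTS-R, and at -0.0356 without the latter in the interaction. Nab2 was at 0.19 with voomWithQualityWeights, 0.0550 without the libraries with Xist and 1.01 without the T cell-rich ones in NTS-R against TS-R. It was at 0.46 without the airway-rich libraries in NS-R against WTS-R, and at 0.10 with voomWithQualityWeights and 0.0921 without the libraries with Xist in NTS-R against NS-R. In the interaction Nab2 was at 0.56, 0.40, 0.19 and 1.06 with voomWithQualityWeights, without Xist, with the clock covariate and without the T cell-rich libraries. Without the 2 farthest libraries r became 0.175 for Egr1 and Nab1, -0.103 for Egr3 and Egr4, -0.175 for Egr3 and Nab2 and -0.281 for Nab1 and Nab2. Within groups it was -0.219 for Egr2 and Nab2 and -0.150 for Egr3 and Nab2. The pairs that passed within groups numbered 1 instead of 3, by a permutation p that can be too small. The interaction has no fit of only the groups compared, and depth limits Egr4, which has no fitted value.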
